A study of Mus musculus with 6 samples.

Results

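Interferon response genes are the genes that cells switch on when interferons bind their receptors, and most of them encode proteins that hinder the growth of viruses. They were taken here as 36 genes chosen by name, of which 33 were each read by a probe set annotated with that gene alone, out of 19938 genes measured in the same way. Where a gene had several such probe sets, the one with the highest mean over the 6 arrays stood for it. Isg15 and Gbp2 were listed only on probe sets shared with another gene, Ifi44 was not listed, and all 3 were left unanalysed.

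The cells were mast cells grown from C57BL/6J mouse bone marrow over 5 weeks with SCF at 1 ng/ml and IL-3 at 0.5 ng/ml. There were 3 independent cultures from mice lacking the microRNA miR-155 (miR-155 KO) and 3 from wild type mice (WT), with 1 array per culture. All cultures of both genotypes were sensitised overnight with 0.2 µg/ml of anti-DNP IgE, and 1 h before harvest they received 20 ng/ml of DNP-HSA, the antigen that cross-links this IgE. No unstimulated and no interferon-treated culture was analysed here, so the values compare genotypes in antigen-stimulated cells and measure neither the response to antigen nor that to interferon. The sources used here do not say how the deletion was made or whether the cultures of 1 genotype came from different mice.

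In the textbook pathway, type I interferons bind IFNAR1 and IFNAR2, the kinases JAK1 and TYK2 become active, and STAT2 and IRF9 come together in the factor ISGF3. ISGF3 binds the interferon-stimulated response element, a repeat of GAAA letters, while much of the response to interferon gamma runs through IRF1. Mast cells carry interferon receptors, but antigen acting through the IgE receptor FcεRI signals mainly through other factors. MicroRNAs such as miR-155 lower the level of messages that match their seed, bases 2 to 8 of the mature strand.

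The mature strand of the missing microRNA is printed because it defines the genotype, with the seed in capitals. It lies at chr16:84714143-84714165 (plus strand), and sequences and coordinates are those of RefSeq on GRCm38.p6.
mmu-miR-155-5p: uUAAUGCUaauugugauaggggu

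Of the 36 genes, 29 matched a promoter in the RefSeq table, which gives 250 bases before to 50 after the start site. The GAAA pair, that is GAAA, any 2 bases and GAAA again, was searched on both strands and stood in a promoter of 14 of these 29 genes (48.3%), against 1079 of the 27025 genes in that table (3.99%). A run of 3 GAAA at the same spacing was found in 3 of the 29 (10.3%), against 0.133% of all genes, and TTCNNNGAA, the letters of a STAT site, in 10 of 29 (34.5%), against 9.55%. Each run of 3 also counts as a GAAA pair. The members were picked as known interferon targets, so these shares describe the list. The windows below, each of 30 bases read along the gene's strand with the GAAA pair or its reverse complement in capitals, show the element in members that were bright on these arrays (Bst2, Stat2, Irf2) and in members that were dim (Gbp3, Ifit1, Rsad2, Cxcl10).
Bst2, chr8:71537581-71537610, minus strand: cattccagGAAAATGAAACTGAAAggctgc
Stat2, chr10:128270268-128270297, plus strand: caccctggTTTCAGTTTCctttccctagaa
Irf2, chr8:46739496-46739525, plus strand: ggggaagtGAAAATGAAAttgacttttccg
Gbp3, chr3:142559991-142560020, plus strand: ggacacagTTTCAGTTTCTATTTCccagat
Ifit1, chr19:34640777-34640806, plus strand: ggcttcagTTTCACTTTCcagtctcagttt
Rsad2, chr12:26456551-26456580, minus strand: ggtccaacTTTCATTTTCagaaaacagaaa
Cxcl10, chr5:92349081-92349110, minus strand: acgctttgGAAAGTGAAActtacctcactc

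Values are log2 intensities after RMA, so a difference of 1 is a 2-fold difference. Probe sets differ in how brightly they read the same amount of RNA, and no gene's level is set against another's. Dim here means a mean over the 6 arrays below that of the median gene, 3.92, where a reading may be background. By this measure 18 of the 33 genes were dim, 54.5%, where 50% of all genes are by construction. A gene is said to have risen or fallen where the limma fit over all 19938 genes gave a Benjamini-Hochberg adjusted p under 0.05. Differences are miR-155 KO minus WT, with limma's moderated standard error (SE).

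The cells read as mast cells on every array. The receptor chain Fcer1a averaged 12.10 ± 0.10 in miR-155 KO and 12.06 ± 0.13 in WT cells, and the SCF receptor Kit 11.82 ± 0.10 in miR-155 KO and 11.89 ± 0.19 in WT cells (SD, n = 3 each). Of 11 measured mast cell genes 0 were dim and 0 passed (limma), with 7 positive and 4 negative differences. For 3 of them, Hdc, Mcpt4 and Srgn, all KO arrays lay above all WT arrays (27.3%, against 8.18% of all genes). For 0 all lay below. The differences of Hdc, Mcpt4 and Srgn were 0.84, 0.44 and 0.21 (adjusted p = 0.233, 0.174 and 0.311), and that of Mitf was -0.29 (adjusted p = 0.336). The probe set of Mir155 itself was dim, at 2.77 to 2.91 in miR-155 KO and 2.88 to 3.17 in WT cells, and does not check the deletion. On the leading principal component over all genes, with 48.3% of the variance, KO replicate 1 stood apart at 32.0. The other KO arrays were at 5.36 and 7.31, and those of WT ran from -19.5 to -10.6.

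Samhd1 was the only one of the 33 genes to fall, and 0 rose. Samhd1 encodes a triphosphohydrolase that breaks down deoxynucleotides and so limits reverse transcription by retroviruses. Of the 15 antiviral effectors 9 were dim, among them Ifit1, Ifit2, Ifit3, Mx1, Mx2 and Oas2, and none of these 6 passed. Over all genes tested 0.316% fell and 0.507% rose, so 1 of 33 lower (3.03%) rests on a single gene. At an unadjusted p under 0.05, 4 genes were lower (12.1%, against 6.45% of all genes) and 1 was higher (3.03%, against 6.24%). The median difference of the 33 genes was -0.03, against -0.01 over all genes, and 23 of the 33 were negative (69.7%, against 52% of all genes).

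**Figure D1:**
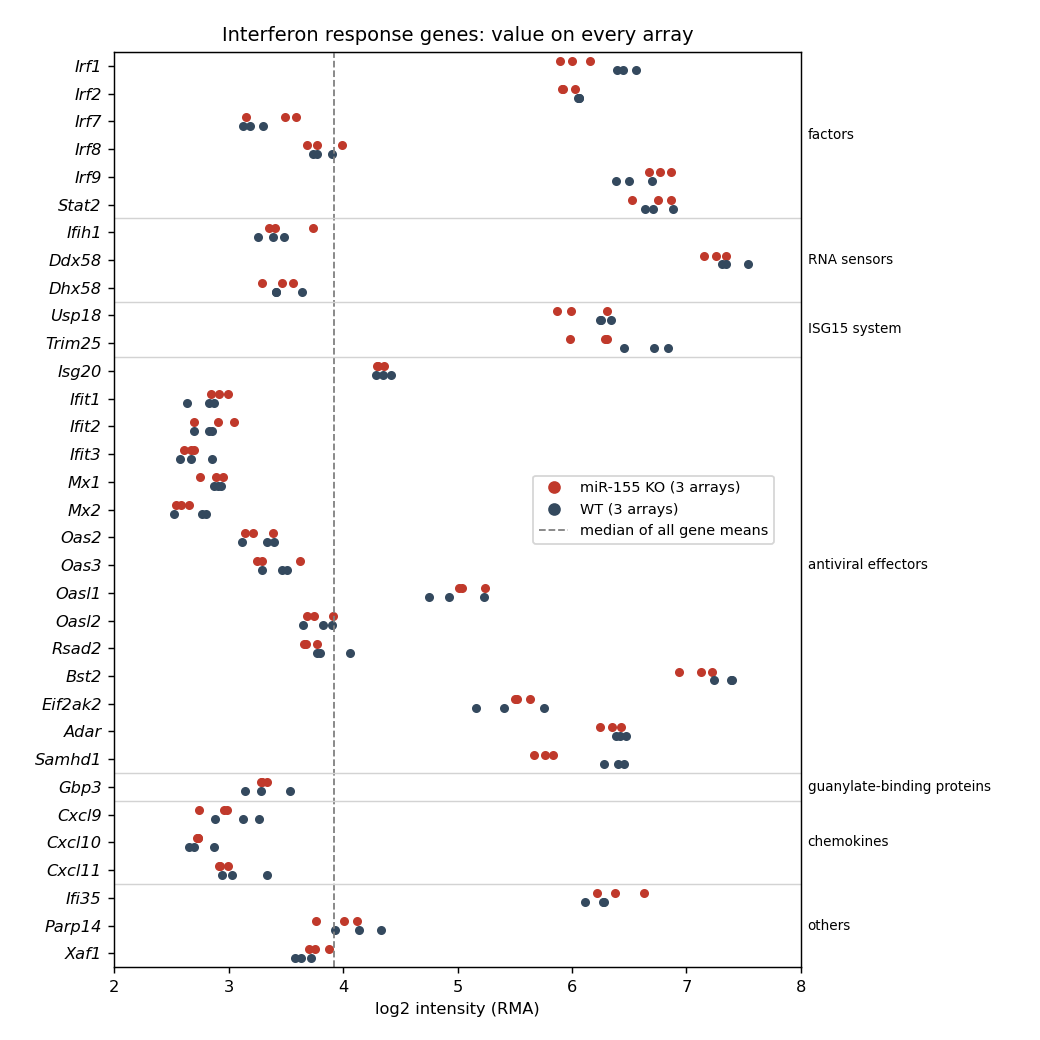
Log2 intensity (horizontal axis) of each of the 33 interferon response genes on every array, grouped by role, with miR-155 KO arrays in red above WT arrays in dark blue; the dashed line is the median of all gene means, 3.92. The Ifit, Mx and Cxcl genes lie left of the line in both genotypes, and Samhd1, Irf1 and Trim25 are separated by genotype.

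Samhd1 read 5.77, 5.67 and 5.83 on the miR-155 KO arrays, against 6.28, 6.40 and 6.46 on the WT arrays. All 3 KO arrays lay below all 3 WT arrays, and the gap between the genotypes was wider than the spread within either. The difference was -0.62 (SE 0.09, 95% interval -0.83 to -0.42, adjusted p = 0.0247), or 1.54-fold lower, the 60th lowest p of all genes. Leaving out any 1 of the 6 arrays ended the call (adjusted p between 0.0501 and 0.0932), as did testing all 35557 probe sets (adjusted p = 0.122), while the difference stayed between -0.67 and -0.58 in those fits.

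The promoter of Samhd1 is printed because it belongs to the only member that passed. It held 0 GAAA pairs in its 300 bases and 1 to TTCNNNGAA, in capitals, which starts 235 bases before the start site. The 250 bases before the start site, at chr2:157135097-157135346 on the minus strand, are 65.6% G or C.
Samhd1: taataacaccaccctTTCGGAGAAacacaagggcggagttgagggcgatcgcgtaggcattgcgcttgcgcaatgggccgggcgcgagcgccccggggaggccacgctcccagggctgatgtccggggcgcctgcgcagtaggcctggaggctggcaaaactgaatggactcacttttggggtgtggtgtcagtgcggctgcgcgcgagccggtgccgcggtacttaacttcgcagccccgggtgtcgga

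Samhd1 is also expressed by macrophages and dendritic cells. Averaged over 9 measured genes of macrophages and monocytes, the arrays stood between 4.02 and 4.21 in miR-155 KO and between 4.29 and 4.45 in WT cells. Of the 9 genes 6 had negative and 3 positive differences. One of the 9, the fractalkine receptor gene Cx3cr1, fell to 7.85 ± 0.23 in miR-155 KO, against 8.80 ± 0.20 in WT cells (difference -0.95, adjusted p = 0.0280), and of the 6 fits without 1 array it passed only that without KO replicate 2 (adjusted p up to 0.0911 in the others) and was lost over every probe set (adjusted p = 0.151). Without Cx3cr1 the list's array means overlapped between genotypes, and the highest stood at 3.77 in miR-155 KO and 3.92 in WT cells. Csf1r, Cd14 and Lyz2 were dim, with means over the 6 arrays of 3.44, 3.05 and 2.95, and 7 of the 9 were dim. Besides Cx3cr1 the bright gene was Cd68, at 8.10 ± 0.44 in miR-155 KO and 8.46 ± 0.08 in WT cells (difference -0.35, adjusted p = 0.515). All KO arrays lay below all WT arrays for Cx3cr1 and Csf1r, 2 of the 9 (22.2%, against 9.05% of all genes), and above them for 0. Of 8 dendritic cell genes 6 were dim and 0 passed (limma). Their array means lay between 3.46 and 3.49 in miR-155 KO and between 3.41 and 3.53 in WT cells. For 3 of the 8, H2-Ab1, Clec9a and Xcr1, all KO arrays lay below all WT arrays (37.5%, against 9.05% of all genes), and for 0 above. The other 5 had positive differences. The 2 bright genes went opposite ways, H2-Ab1 by -0.56 (adjusted p = 0.0523) and Itgax by 0.39 (adjusted p = 0.382). In bulk RNA fewer cells of a type and less RNA per cell cannot be told apart, and the part of other cells in the Samhd1 difference was not tested.

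Among the transcription factors 0 of 6 passed, and they leaned both ways. Irf1, the factor that carries much of the interferon gamma response and is also induced through NF-κB, had the second lowest p of the 33 genes. It read 6.15, 5.90 and 6.00 on the miR-155 KO arrays, against 6.45, 6.39 and 6.56 on the WT arrays. The genotypes did not overlap, with a difference of -0.45 (SE 0.10, adjusted p = 0.0815, 1.37-fold lower). A second, dimmer probe set of Irf1, with a mean of 3.40, differed by 0.10, and with both averaged the difference was -0.18 (adjusted p = 0.487).

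Irf9, the DNA-binding part of ISGF3, leaned the other way. It read 6.87, 6.67 and 6.77 on the miR-155 KO arrays, against 6.50, 6.70 and 6.38 on the WT arrays. The genotypes overlapped by 1 WT array, and the difference of 0.24 (SE 0.10) had an adjusted p of 0.381. Stat2, its partner in ISGF3, read 6.53, 6.75 and 6.87 in miR-155 KO and 6.64, 6.88 and 6.71 in WT cells, fully mixed between genotypes (difference -0.03, 95% interval -0.28 to 0.23).

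Irf2, which competes with IRF1 for the same sites, read 5.91, 5.92 and 6.03 in miR-155 KO and 6.06 on each of the 3 WT arrays. The KO arrays lay just below, by 0.11 (SE 0.08, adjusted p = 0.679). Irf7, the factor that amplifies interferon alpha production, was dim at 3.58, 3.15 and 3.49 in miR-155 KO and 3.18, 3.12 and 3.30 in WT cells, with overlapping genotypes (difference 0.21, adjusted p = 0.570). Irf8, a factor of monocyte and dendritic cell development, was dim as well, at 3.99, 3.69 and 3.77 in miR-155 KO and 3.90, 3.73 and 3.77 in WT cells. The Irf8 genotypes were mixed, with a difference of 0.01 (95% interval -0.22 to 0.25) whose sign changed under other settings.

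The RNA sensors did not pass either. Ddx58 encodes RIG-I, which detects viral RNA in the cytosol, and it was bright here. It read 7.16, 7.26 and 7.35 on the miR-155 KO arrays, against 7.34, 7.31 and 7.54 on the WT arrays, with 1 KO array inside the WT range (difference -0.14, SE 0.10, adjusted p = 0.638). Ifih1, which encodes the sensor MDA5, and Dhx58, which encodes their regulator LGP2, were dim, with differences of 0.12 and -0.05 and adjusted p of 0.771 and 0.919.

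Trim25 and Usp18 belong to the machinery of ubiquitin and of the ubiquitin-like protein ISG15, and 0 of these 2 passed. Trim25, a ubiquitin ligase that activates RIG-I, read 6.29, 5.99 and 6.31 on the miR-155 KO arrays, against 6.45, 6.72 and 6.84 on the WT arrays. Its genotypes did not overlap, and the difference of -0.48 (SE 0.13, 95% interval -0.77 to -0.18) had an adjusted p of 0.143. Usp18, which removes ISG15 from proteins and restrains IFNAR signalling, read 6.00, 5.87 and 6.31 in miR-155 KO and 6.24, 6.26 and 6.35 in WT cells. KO replicate 3 lay within the WT range, and the Usp18 difference was -0.22 (SE 0.12, adjusted p = 0.501).

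Among the 15 antiviral effectors 1, Samhd1, fell and 14 did not pass. Bst2, or tetherin, which holds budding virus at the cell surface, read 7.13, 6.94 and 7.22 on the miR-155 KO arrays, against 7.25, 7.39 and 7.40 on the WT arrays. The genotypes were separated by less than the spread within them, with a difference of -0.25 (SE 0.10, adjusted p = 0.335). Rsad2, which encodes viperin, was dim at 3.67, 3.66 and 3.77 in miR-155 KO and 3.80, 3.78 and 4.06 in WT cells. The Rsad2 arrays just failed to touch, with a difference of -0.18 (SE 0.10, adjusted p = 0.533). Adar, an enzyme that edits double-stranded RNA, read 6.24, 6.35 and 6.43 in miR-155 KO and 6.47, 6.42 and 6.38 in WT cells, overlapping, with a difference of -0.08 (SE 0.09, adjusted p = 0.787).

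The other 11 effectors had differences between -0.10 for Mx2 and 0.14 for Ifit1. The IFIT proteins bind foreign RNA, and Ifit1, Ifit2 and Ifit3 averaged 2.92, 2.88 and 2.66 in miR-155 KO and 2.78, 2.79 and 2.70 in WT cells. The 95% intervals of their differences ran from -0.07 to 0.35, from -0.16 to 0.34 and from -0.26 to 0.18. Mx1 and Mx2 encode dynamin-like GTPases whose alleles are defective in C57BL/6 mice, and they averaged 2.86 and 2.59 in miR-155 KO and 2.90 and 2.69 in WT cells.

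The OAS proteins sense double-stranded RNA. Of their genes, Oas2 (difference -0.03), Oas3 (-0.03) and Oasl2 (-0.01) were dim, and Oasl1 was brighter, averaging 5.10 ± 0.12 in miR-155 KO and 4.97 ± 0.25 in WT cells. Eif2ak2, the RNA-dependent kinase PKR, averaged 5.55 ± 0.07 in miR-155 KO and 5.44 ± 0.30 in WT cells, and Isg20, an exonuclease, 4.32 ± 0.03 in miR-155 KO and 4.35 ± 0.07 in WT cells. On a dim probe set a true difference is understated, so the narrow intervals of the dim genes bound the reading and not the message.

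The interferon-induced chemokines Cxcl9, Cxcl10 and Cxcl11, which draw T cells through the receptor CXCR3, were dim. Cxcl9 read 2.98, 2.96 and 2.74 in miR-155 KO and 3.13, 2.88 and 3.26 in WT cells, overlapping (difference -0.20, SE 0.12, adjusted p = 0.579). Cxcl10 averaged 2.73 ± 0.01 in miR-155 KO and 2.74 ± 0.12 in WT cells, and Cxcl11 averaged 2.94 ± 0.04 in miR-155 KO and 3.10 ± 0.21 in WT cells. Gbp3, of a family of GTPases that attack the vacuoles of pathogens, averaged 3.30 ± 0.03 in miR-155 KO and 3.32 ± 0.20 in WT cells. None of these 4 genes passed by limma, and 0 had an unadjusted p under 0.05.

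Of the remaining members, Ifi35, which binds the protein NMI, read 6.63, 6.22 and 6.37 in miR-155 KO and 6.11, 6.28 and 6.27 in WT cells. The Ifi35 arrays overlapped, with a difference of 0.19 (SE 0.12, adjusted p = 0.600). Xaf1, an antagonist of the apoptosis inhibitor XIAP, and Parp14, an ADP-ribosyltransferase, differed by 0.14 and -0.17 (adjusted p = 0.607 and 0.695). Parp14, Mx1 and Mx2 lie on chromosome 16, as Mir155 does, at distances that were not compared, and 0 of the 3 passed (limma) or had an unadjusted p under 0.05.

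**Figure D2:**
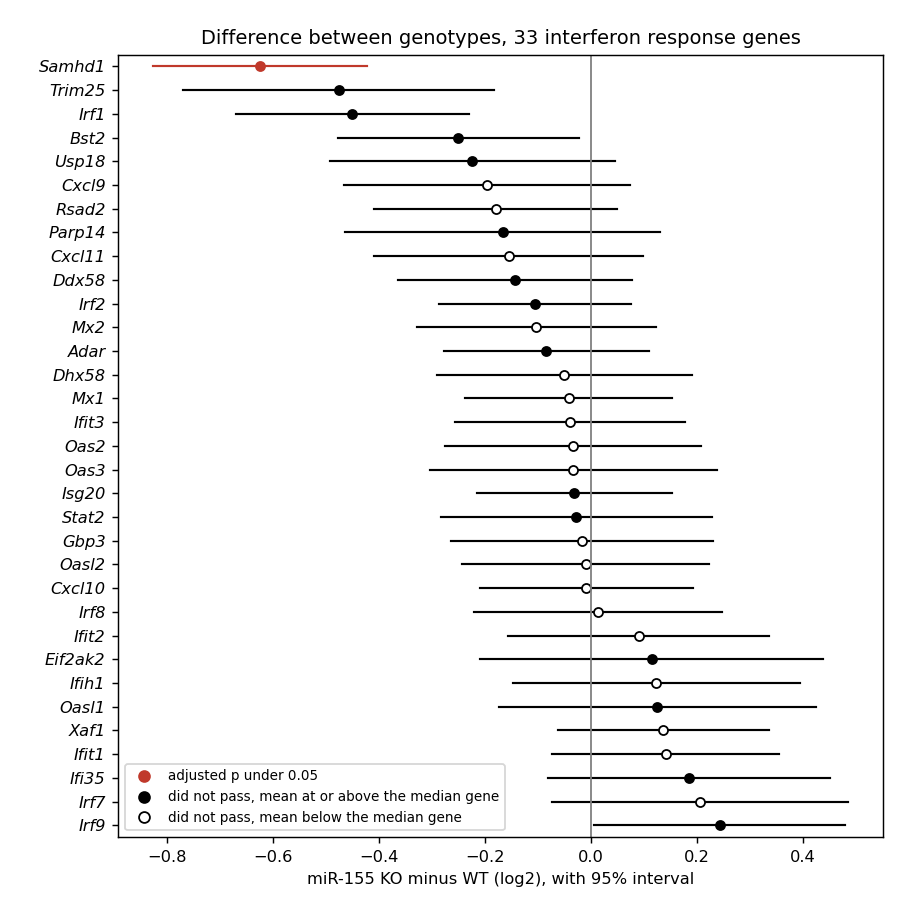
Difference between genotypes (miR-155 KO minus WT, log2, horizontal axis) for each of the 33 genes with its 95% interval from the limma fit (3 arrays per genotype), ordered by size; filled points have a mean at or above the median gene, open points a mean below it. Samhd1, in red at -0.62, is the only gene with an adjusted p under 0.05, and the others lie between -0.48 and 0.24.

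All 3 miR-155 KO arrays lay below all 3 WT arrays for Samhd1, Irf1, Trim25, Bst2, Rsad2 and Irf2. These were 6 of 33 (18.2%), against 9.05% of all genes tested. No member had all KO arrays above all WT arrays, 0 of 33, against 8.18% of all genes. Of the 6, 5 were bright and Rsad2 was dim. The 15 bright members had a median difference of -0.11 and the 18 dim members one of -0.03. The 95% interval of the difference lay within 0.5 of 0 for 30 of the 33 genes, the exceptions being Samhd1, Irf1 and Trim25. The 30 include all 18 dim members, whose intervals bound the reading and not the message. The share over all genes was not counted, and the median SE was 0.104 for the 33 genes and 0.102 for all genes.

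**Figure D3:**
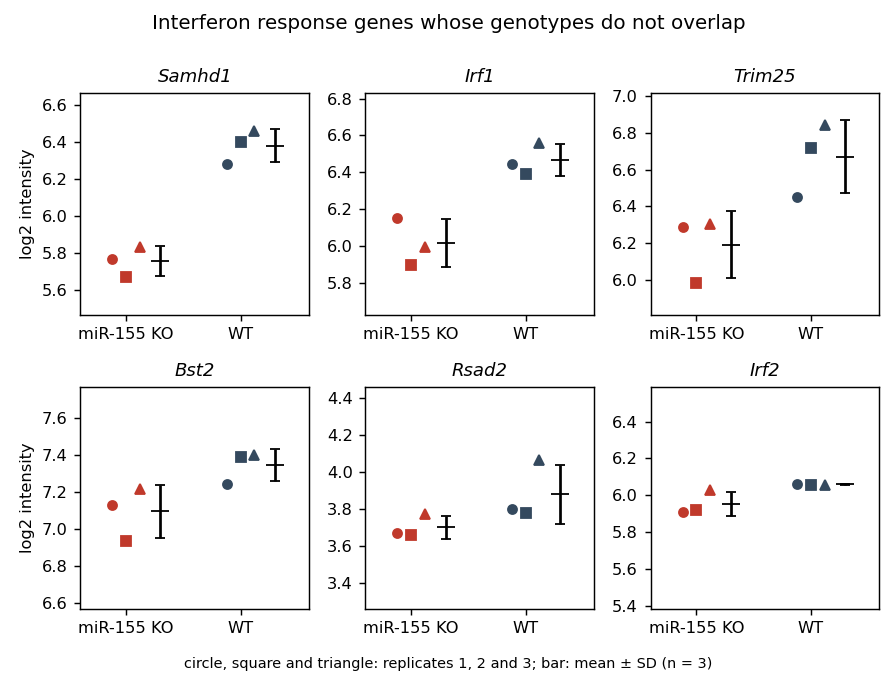
Log2 intensity on each array for the 6 members whose genotypes do not overlap, miR-155 KO left and WT right, with the mean ± SD (n = 3) beside each group; axes are cut to each gene's range and do not start at 0. The gap is widest for Samhd1 (5.67 to 5.83 in miR-155 KO, 6.28 to 6.46 in WT) and the arrays of Rsad2, Bst2 and Irf2 nearly touch.

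From culture to culture, the median deviation of the 33 genes from their own means was -0.01, -0.05 and -0.00 on the miR-155 KO arrays and 0.02, 0.02 and 0.01 on the WT arrays. Over the 15 bright members it was -0.10, -0.07 and 0.02 on the KO arrays and 0.02, 0.05 and 0.18 on the WT arrays, with WT replicate 3 highest and KO replicate 3 level with WT replicate 1. Without KO replicate 1, the array that stood apart, the median difference of the 33 genes was -0.06. In that fit the differences of Irf7, Ifi35, Adar and Ddx58 shrank to 0.12, 0.07, -0.04 and -0.09, and those of Stat2 and Irf8 changed sign, to 0.07 and -0.07. None of these 6 genes passed with or without that array. As a description with no test, the 12 measured members with the GAAA pair in a promoter had a median difference of -0.03 (from -0.25 to 0.14), and the 14 with a promoter in the table but no match one of 0.00 (from -0.62 to 0.24). Samhd1, Irf1 and Trim25 are among those with no match.

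Upstream of these genes stand the interferons themselves. Of 14 measured interferon genes 0 rose, 0 fell (limma) and 13 were dim, and the median difference was -0.10. Ifnb1, the first type I interferon made by most infected cells, averaged 2.64 ± 0.08 in miR-155 KO and 2.75 ± 0.08 in WT cells (difference -0.11, adjusted p = 0.688). Ifna12, Ifna9 and Ifne, the other 3 with the lowest p, had differences of -0.28, -0.19 and -0.13 and adjusted p of 0.289, 0.506 and 0.588. Ifne was the 1 of the 14 (7.14%, against 9.05% of all genes) with all KO arrays below all WT arrays, and 0 had all above. Genes of the interferon alpha family are near copies of each other, so their probe sets may share signal.

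Of 12 measured receptor, kinase and feedback genes 1 rose, 0 fell and 11 did not pass, with a median difference of -0.00. In 4 of the 12 (33.3%, against 8.18% of all genes), Ifnar1, Jak2, Socs3 and Jak1, all KO arrays lay above all WT arrays. In 1, Ptpn6 (8.33%, against 9.05% of all genes), all KO arrays lay below. The gene that rose was Ifnar1, the type I interferon receptor chain bound by TYK2. Ifnar1 read 7.79, 7.71 and 7.59 on the miR-155 KO arrays, against 6.42, 6.61 and 6.74 on the WT arrays, a clear separation (difference 1.10, SE 0.11, 2.15-fold, adjusted p = 0.00534). It passed in each of the 6 fits without 1 array (adjusted p up to 0.0381) and not over every probe set (adjusted p = 0.0666). Ifnar1 lies on chromosome 16, the chromosome of Mir155. Ifnar2, Ifngr2 and Socs1 of the same list lie there too, with differences of -0.07, -0.28 and -0.12, and did not pass. Distances from these genes to Mir155 were not compared, and an effect of the deleted region on its neighbours was not tested.

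The other chain, Ifnar2, averaged 6.89 ± 0.14 in miR-155 KO and 6.97 ± 0.38 in WT cells (difference -0.07, adjusted p = 0.931). The kinase genes Jak1 and Tyk2 differed by 0.11 and 0.01 (adjusted p = 0.689 and 0.975). Jak2, the kinase of the interferon gamma and IL-3 receptors, read 10.63, 9.52 and 9.94 in miR-155 KO and 9.20, 8.94 and 8.77 in WT cells. Its KO arrays were all higher but widely spread, with a difference of 1.06 (SE 0.25, adjusted p = 0.0964, and 0.0438 without KO replicate 2). Ptpn6, the phosphatase SHP-1, differed by -0.34 and Socs3, a feedback inhibitor of cytokine receptors, by 0.26, with adjusted p of 0.146 and 0.253.

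Of 17 sensors and adaptors that lead to interferon production 1 rose, 0 fell and 16 did not pass, with a median difference of -0.01. Irf5, a factor activated through Toll-like receptors, read 5.79, 5.62 and 5.78 on the miR-155 KO arrays and 5.08 on each of the 3 WT arrays. The KO arrays lay well above, by 0.65 (SE 0.08, 1.57-fold, adjusted p = 0.0148), and the call was lost without KO replicate 3 and without each of the WT arrays (adjusted p between 0.0632 and 0.0717) and over every probe set (adjusted p = 0.0914). The related factor Irf3 differed by -0.05 (adjusted p = 0.900). Ikbke, a kinase that activates IRF3, and the adaptor genes Myd88 and Traf6 differed by 0.34, -0.12 and 0.16 (adjusted p = 0.467, 0.620 and 0.631).

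Among 44 other measured interferon-induced genes the median difference was -0.10, with 1 gene higher by the test, 0 lower and 43 that did not pass. Slfn2, a Schlafen gene that restrains proliferation of immune cells, read 8.45, 7.90 and 8.30 on the miR-155 KO arrays, against 7.07, 7.17 and 7.31 on the WT arrays. It was higher on every KO array (difference 1.04, SE 0.14, 2.05-fold, adjusted p = 0.0203), and the call was likewise lost without KO replicate 3 or any WT array (adjusted p between 0.0678 and 0.101) and over every probe set (adjusted p = 0.131). Tor3a, an ATPase of the endoplasmic reticulum, was higher by 0.52 (adjusted p = 0.0745). Psmb9, a subunit of the immunoproteasome, and Lgals9, the lectin galectin-9, were lower by amounts that did not pass, with differences of -0.41 and -0.36 (adjusted p = 0.0872 and 0.101). In this list 3 genes (6.82%) had all KO arrays above and 4 (9.09%) all KO arrays below the WT arrays, near the 8.18% and 9.05% of all genes.

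**Figure D4:**
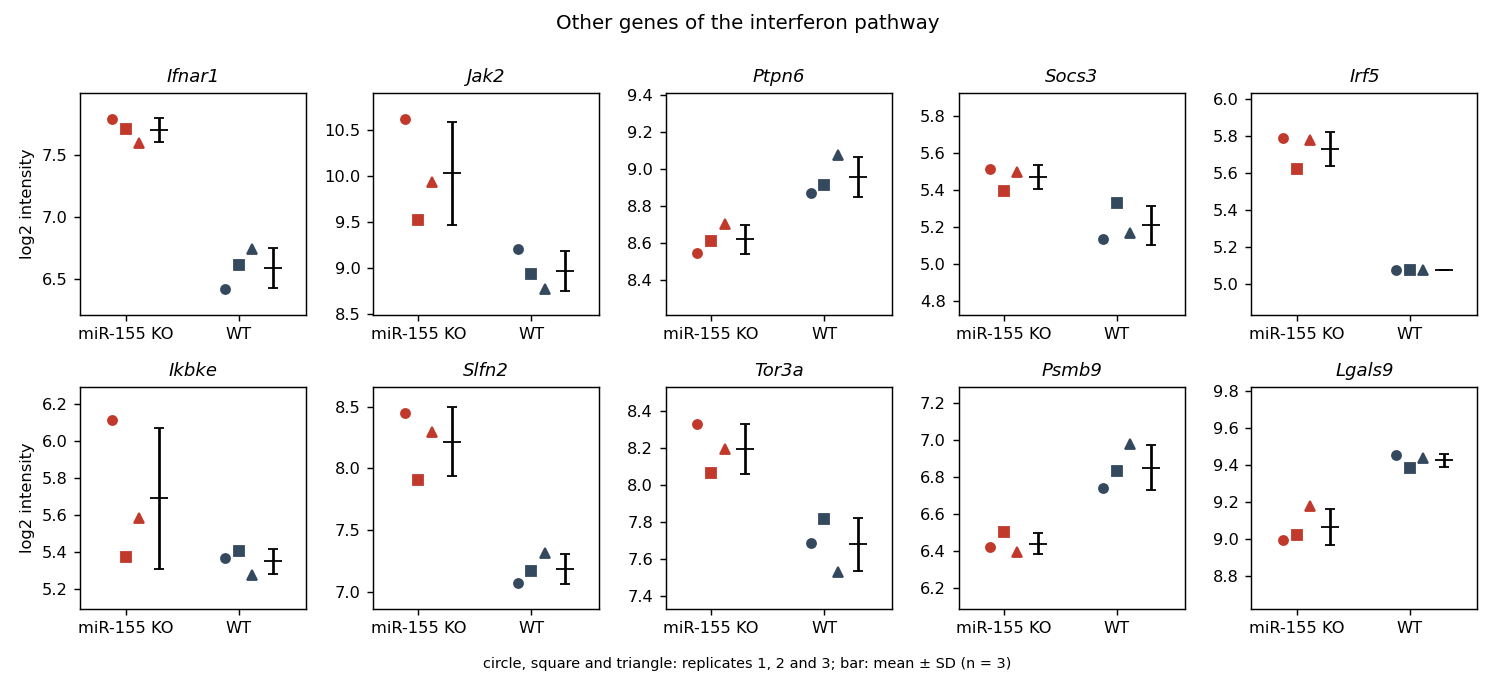
Log2 intensity on each array for 10 other genes of the interferon pathway, chosen as the lowest p of their lists, miR-155 KO left and WT right, with the mean ± SD (n = 3) beside each group; axes are cut to each gene's range. Ifnar1, Irf5 and Slfn2 are higher on all KO arrays and passed, while the KO arrays of Jak2 and Ikbke are widely spread.

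Markers of most other blood cells read low, those of basophils apart. Of 6 plasmacytoid dendritic cell genes 5 were dim, with Siglech averaging 2.90 ± 0.08 in miR-155 KO and 3.00 ± 0.17 in WT cells. All 8 neutrophil genes and all 8 genes of T, NK and B cells were dim, and 0 of them passed (limma). The 4 basophil genes were bright, and their array means ran from 6.58 to 7.26 in miR-155 KO and from 6.34 to 7.34 in WT cells. The cultures varied most in Mcpt8 (SD 1.01 in miR-155 KO and 1.27 in WT cells) and Prss34 (0.35 and 0.76), and less in Cd200r3 (0.01 and 0.13). Il18rap was higher on every KO array, at 8.27 ± 0.08 in miR-155 KO and 7.78 ± 0.12 in WT cells (difference 0.49, adjusted p = 0.0597). Of the 4 differences 2 were negative and 2 positive. The part of basophil-like cells in the values of the interferon response genes was not tested.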

How the data were processed

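Affymetrix Mouse Gene 1.0 ST arrays were hybridised with biotin-labelled target from the total RNA of 6 cultures. The deposited values are log2 intensities that the authors made with RMA, per the submitters' processing notes. RMA corrects background, normalizes between arrays and summarises probes. Its version and the annotation build were not given in the sources used here. Array medians lay between 3.67 and 3.74, and nothing was normalized again. The precision is limited by 3 arrays per group. Whether p-values reflect spread between animals is not known.

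Of 35557 probe sets, 21789 had 1 symbol in the platform annotation, 1621 several and 12147 none. The fit used R 4.3.3 and limma 3.58.1 (lmFit and eBayes, with genotype as the only term, 4 residual and 4.68 prior degrees of freedom). Tests were two-sided and Benjamini-Hochberg adjusted over 19938 genes. Data were simulated for these genes with independent normal noise of each gene's moderated SD and no effects shared by an array. There 98.8% of changes of 1 log2 unit were recovered, and 7.04% of calls were false. Changes below 1 log2 unit, the size of every member's difference, were not simulated, so these figures do not give the power for the members. The members and all lists were chosen with earlier results of these data known, so no list was tested. All members are named. Array values are given for the 10 lowest p, the 8 brightest, those whose genotypes do not overlap, and the IRF and STAT genes. Of each pathway list the 4 lowest p and any call are named. Other genes were chosen after their values were seen. Figures were drawn with matplotlib 3.10.9.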

Additional observations from a re-analysis of the deposited data

How the results depend on the processing

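The count of members that rose was 0 under all 14 alternatives. The count that fell was 1 in the fit as reported and under 7 alternatives, each time Samhd1. These were array weights, the replicate block, the mean of a gene's probe sets, trend and robust priors, median centring, the filter on dim genes and repeated quantile normalization. It was 0 over every probe set, where limma's variance prior was estimated anew from all probe sets and more tests enter. It was also 0 in each of the 6 fits without 1 array, where fewer arrays enter. The same-numbered arrays are not known to be paired. Their deviations correlated at -0.01, -0.06 and 0.24 for numbers 1, 2 and 3, and with the replicate block the adjusted p of Samhd1 was 0.0370. The number of calls over all genes was 164 as reported, 4 over every probe set, and between 15 and 167 without 1 array.

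The median difference of members was -0.11 after the filter on dim genes, which left 15 of them, and -0.0638 to -0.0176 without 1 array. The median of all genes was -0.0212 after median centring and -0.0129 after repeated quantile normalization. Of 15 genes followed singly, Irf8 turned to -0.00169 after median centring, to -0.0311 with array weights, and ranged from -0.0736 to 0.0773 without 1 array. Stat2 turned to 0.0198 with array weights and ranged from -0.103 to 0.0662 without 1 array. The cause was not tested. No other of the 15 changed direction. Dim probe sets limit what can be said of 18 members.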

Other observations

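Of the antigen presentation genes without array values above, 4 are given with their values. They were picked after these were seen, so their split by direction is not a result. Tap1, a subunit of the peptide transporter, read 6.61, 6.67 and 6.51 in miR-155 KO and 6.84, 6.97 and 7.28 in WT cells. The groups did not overlap (difference -0.43, adjusted p = 0.153). H2-Ab1, a chain of MHC class II, read 4.71, 4.42 and 4.40 in miR-155 KO and 5.03, 5.13 and 5.05 in WT cells, also without overlap (difference -0.56, adjusted p = 0.0523, and 0.0249 without KO replicate 1). B2m, the light chain of MHC class I, differed by 0.16 (adjusted p = 0.519), and Psmb10, a subunit of the immunoproteasome, by 0.28 (adjusted p = 0.271), with all KO arrays above the WT arrays.

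The basophil protease gene Mcpt8 varied more between cultures than between genotypes, at 5.64, 6.18 and 7.58 in miR-155 KO and 7.56, 5.23 and 7.26 in WT cells.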
